A study of Homo sapiens with 16 samples.

Results

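The genes described are 5 annexins (ANXA1, ANXA2, ANXA3, ANXA5 and ANXA6), 3 S100 genes whose proteins bind annexins (S100A6, S100A10 and S100A11) and TGFBI, a matrix gene named for its induction by transforming growth factor beta (TGF-beta). They are 9 of the 60676 Ensembl gene IDs counted, matched by ID. They were picked because ANXA1 and TGFBI were higher in knockout cells, so differences between the genotypes are given for these 9 as values, with no test. The libraries came from LNCaP, an androgen-responsive line from a lymph node metastasis of prostate adenocarcinoma. Parental cells (WT) and cells in which RB and p53 were knocked out together with CRISPR-Cas9 (DKO) were grown for 6 days with the solvent DMSO or with 50 µM enzalutamide (EZ), an antiandrogen. Each of the 4 groups held 4 libraries of total RNA with ribosomal RNA reduced. Whether the DKO cells were a clone or a pool, and whether replicates were separate cultures, is not given in the sources used here, so every p-value covers the spread among these libraries alone, which may be technical.

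Annexins are cytosolic proteins that bind acidic membrane phospholipids when calcium rises, and take part in membrane repair, vesicle traffic and exocytosis. S100 proteins are small calcium-binding dimers, several of which clasp the N-terminal tail of an annexin and link a pair of annexins across membranes: S100A10 with ANXA2, S100A11 with ANXA1, and S100A6 with ANXA6 among others. ANXA1 is a glucocorticoid-responsive inhibitor of inflammation that signals through formyl peptide receptors. TGFBI is a secreted protein of the extracellular matrix that binds collagens and integrins. ANXA1 and ANXA2 are known to be low in many prostate cancers, and LNCaP is known for little ANXA2 and S100A10.

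The promoters of 4 of the genes are shown because the results below turn on these genes: ANXA1 and TGFBI, which were higher in DKO cells, S100A11, the S100 gene with the highest level per length, and S100A10, which was nearly silent. Each is the RefSeq window on GRCh38.p14 from 250 bases before to 50 bases after the annotated start, written 5′ to 3′ along the gene's strand, with CpG dinucleotides and the letters TATAAA in capitals. The ANXA1 window is chr9:73151615-73151914 on the + strand, and the TGFBI window is chr5:136028738-136029037 on the + strand. The S100A11 window is chr1:152036955-152037254 on the - strand, and the S100A10 window is chr1:151993810-151994109 on the - strand. The gene bounds given below are from GENCODE v29. They begin S100A11 at 152047907 and ANXA2 at 60402883, well upstream of the RefSeq windows of these genes. Other starts of the genes were not examined.
ANXA1: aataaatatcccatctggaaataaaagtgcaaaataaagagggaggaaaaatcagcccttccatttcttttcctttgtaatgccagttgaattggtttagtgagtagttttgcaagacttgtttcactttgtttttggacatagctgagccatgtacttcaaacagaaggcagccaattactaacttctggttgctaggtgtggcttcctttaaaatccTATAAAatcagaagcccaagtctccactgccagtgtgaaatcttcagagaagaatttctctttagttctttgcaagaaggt
TGFBI: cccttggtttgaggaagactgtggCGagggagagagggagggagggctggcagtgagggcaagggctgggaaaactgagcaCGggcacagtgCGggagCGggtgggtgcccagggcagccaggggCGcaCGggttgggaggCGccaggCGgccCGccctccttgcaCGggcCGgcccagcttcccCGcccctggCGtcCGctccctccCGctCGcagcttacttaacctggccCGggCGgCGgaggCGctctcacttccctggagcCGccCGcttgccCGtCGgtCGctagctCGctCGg
S100A11: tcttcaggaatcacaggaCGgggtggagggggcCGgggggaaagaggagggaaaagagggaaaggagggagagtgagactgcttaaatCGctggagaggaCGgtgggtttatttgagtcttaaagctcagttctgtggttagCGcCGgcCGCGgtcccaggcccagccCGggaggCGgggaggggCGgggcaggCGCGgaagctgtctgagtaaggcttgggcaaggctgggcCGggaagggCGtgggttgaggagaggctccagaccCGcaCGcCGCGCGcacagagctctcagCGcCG
S100A10: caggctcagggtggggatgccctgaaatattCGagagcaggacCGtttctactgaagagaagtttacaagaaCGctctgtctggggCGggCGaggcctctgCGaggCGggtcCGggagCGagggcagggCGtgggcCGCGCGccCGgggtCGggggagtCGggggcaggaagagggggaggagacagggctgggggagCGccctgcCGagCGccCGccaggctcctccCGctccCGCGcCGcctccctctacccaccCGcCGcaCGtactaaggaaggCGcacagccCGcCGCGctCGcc

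The ANXA1 promoter differed in composition from those of the other 8 genes. It held 0 CpG in 300 bases and 37.7% G and C, whereas the others held 22 to 36 CpG and 64.7% to 76.3% G and C. The median of 35116 RefSeq promoters of the same length was 14 CpG and 58.7%, and 11% of them had no CpG or 1. The letters TATAAA, searched on both strands, occurred once in the windows of ANXA1 and ANXA2 and in none of the other 7, against 11.5% of all promoters. CCAAT occurred in 2 places in ANXA1 and 1 in ANXA6 (34.6% of all promoters held it). GGGCGG, which itself contains a CpG, occurred in 4 places in TGFBI and 3 each in ANXA2 and S100A6 (45.0%). It also occurred in 1 place each in ANXA5, ANXA6, S100A10 and S100A11. The letters TTTNGCGC (1.8%) and AGAACA (14.8%) were in none of the 9 windows, CAGACA (16.9%) was in those of S100A10 and S100A11, and TGANTCA (7.7%) was in that of ANXA2. These are matches of letters within a short window and say nothing about what binds there.

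Libraries held 11823438 to 47678648 counts and 30166 to 35275 genes with a count. In the libraries labelled DKO, RB1 lay at 9.04 to 13.4 CPM against 95.6 to 128 in WT, so this targeted transcript was lower in every DKO library. CPM here is the count divided by a library size that was rescaled with edgeR's TMM method. Luminal markers were present in all groups, with EPCAM at 102 to 183 CPM and KRT18 at 238 to 401 CPM, whereas the T cell marker CD3E had 0 counts. The share of RN7SL1, a noncoding RNA, split the libraries into 6 with 0.220% to 0.621% of counts and 10 with 0.0481% to 0.117%. Of the 9 genes, 6 had enough counts for the fit across genes. ANXA1 and ANXA2 passed that filter only with their DKO libraries counted, whereas TGFBI reached it in enough WT libraries alone. ANXA3, S100A6 and S100A10 did not pass.

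**Figure D1:**
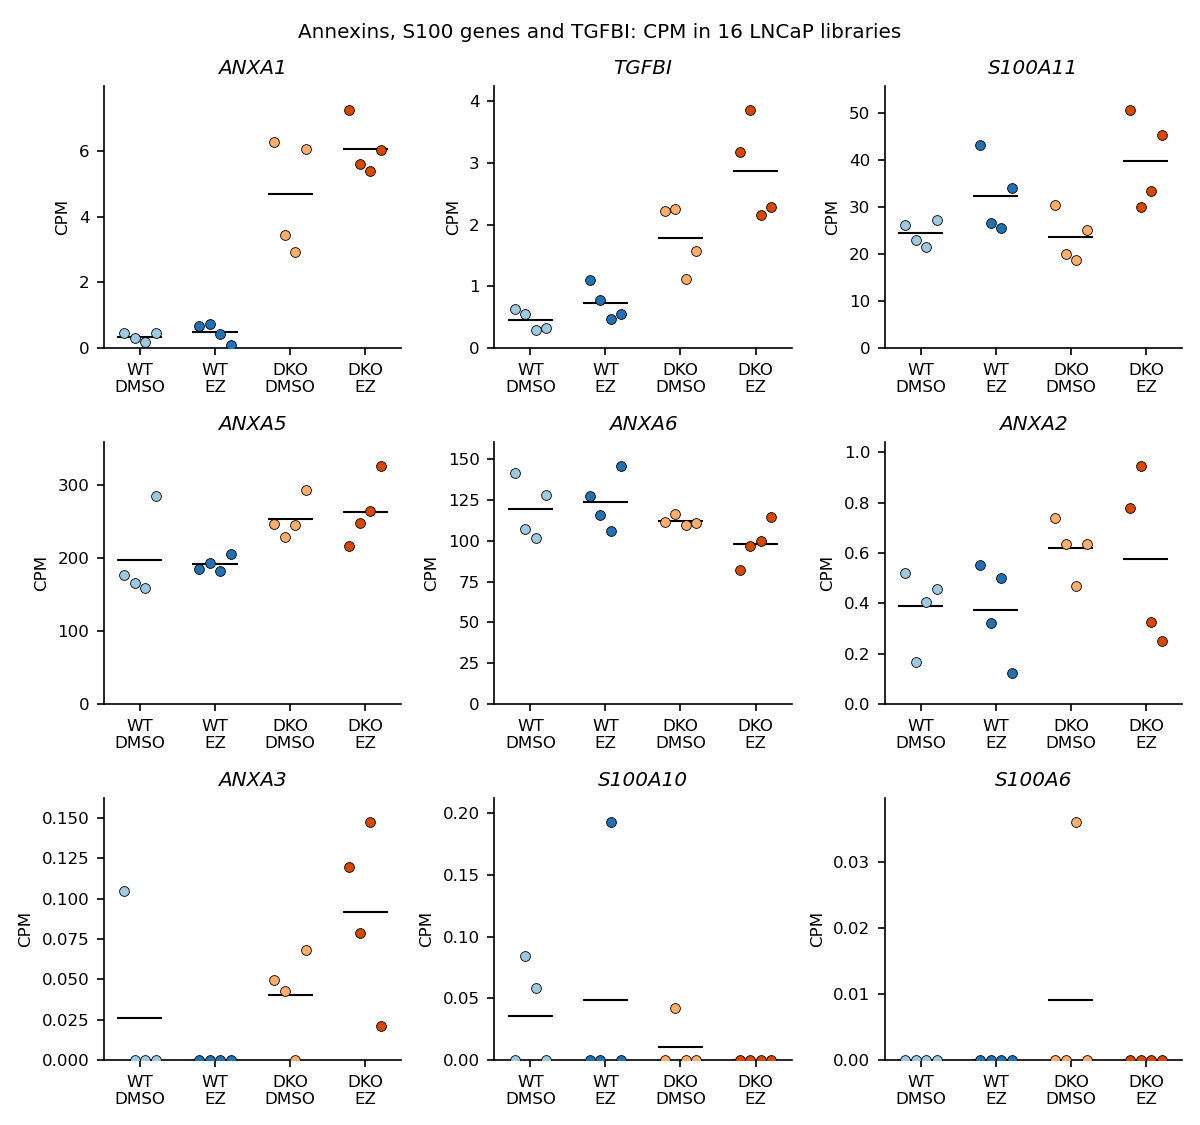
CPM of the 9 genes in each library (points, replicates 1 to 4 from left to right) and the group mean (line), on linear axes that start at 0 and differ between panels. The 8 DKO libraries lie above the 8 WT libraries for ANXA1 (2.92 to 7.25 against 0.0917 to 0.739 CPM) and for TGFBI (1.12 to 3.86 against 0.290 to 1.11 CPM).

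ANXA1 (ENSG00000135046, chromosome 9, 73151757 to 73170393, + strand, GRCh38) was near the limit of detection in WT cells and clearly counted in DKO cells. In WT DMSO replicates 1 to 4 its level was 0.470, 0.294, 0.174 and 0.457 CPM, from 3 to 14 counts per library. In WT EZ it was 0.665, 0.739, 0.425 and 0.0917 CPM. In DKO DMSO it was 6.27, 3.44, 2.92 and 6.05 CPM, from 81 to 266 counts, and in DKO EZ 7.25, 5.60, 5.37 and 6.02 CPM. Every DKO library was above every WT library, and within DKO DMSO replicates 2 and 3 were below replicates 1 and 4. The means were 0.349 ± 0.141 CPM (SD, n = 4) in WT DMSO and 4.67 ± 1.74 in DKO DMSO, a log2 difference of 3.73 ± 0.45 (SE). In EZ they were 0.480 ± 0.292 and 6.06 ± 0.836, a log2 difference of 3.71 ± 0.45.

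Even in DKO cells ANXA1 was a rather low transcript. Per kilobase of exon its DMSO level was 0.0765 ± 0.0310 CPM in WT and 1.02 ± 0.38 CPM in DKO, at percentiles 4.62 and 24.5 among 14360 protein-coding genes tested. Over 25 other settings, among them the removal of each library, the log2 difference lay between 3.57 and 3.97 in DMSO and between 3.34 and 4.04 in EZ. Within the libraries of low RN7SL1 share the difference of mean log2 CPM was 3.56 in DMSO (2 DKO and 3 WT libraries) and 3.82 in EZ, and within those of high share 3.12 and 3.13 (2 DKO and 1 WT library each).

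TGFBI (ENSG00000120708, chromosome 5, 136028895 to 136063818, + strand) differed in the same direction at a lower level. It lay at 0.627, 0.546, 0.290 and 0.332 CPM in WT DMSO, from 5 to 26 counts, and at 1.11, 0.786, 0.464 and 0.550 CPM in WT EZ. In DKO DMSO it lay at 2.22, 2.25, 1.12 and 1.57 CPM, from 31 to 69 counts, and in DKO EZ at 3.17, 3.86, 2.15 and 2.29 CPM. All 8 DKO libraries were above all 8 WT libraries, the nearest being DKO DMSO replicate 3 and WT EZ replicate 1, and in each group replicates 1 and 2 were above replicates 3 and 4. The log2 difference between the genotypes was 1.96 ± 0.36 (SE) in DMSO, from 0.449 ± 0.163 to 1.79 ± 0.547 CPM, and 1.98 ± 0.35 in EZ, from 0.727 ± 0.288 to 2.87 ± 0.803 CPM. Per kilobase its DKO DMSO level was 0.229 ± 0.0701 CPM, at percentile 9.73 of the protein-coding genes. The difference was 1.63 and 1.80 within the libraries of low RN7SL1 share, in DMSO and EZ, and 1.72 and 1.60 within those of high share.

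The other 4 genes with enough counts had smaller differences between the genotypes. ANXA1 and TGFBI were the 2 of 6 tested genes whose DKO libraries all lay above the WT libraries in DMSO, and with ANXA5 they were 3 of 6 in EZ. Over all 21810 tested genes the share was 10.8% in DMSO and 10.6% in EZ, but since the genes were picked on this contrast the counts are only a description. Genes are said to have risen or fallen where their adjusted p in edgeR's quasi-likelihood test was under 0.05, which 18.6% of tested genes reached between the genotypes in DMSO and 20.7% in EZ.

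**Figure D2:**
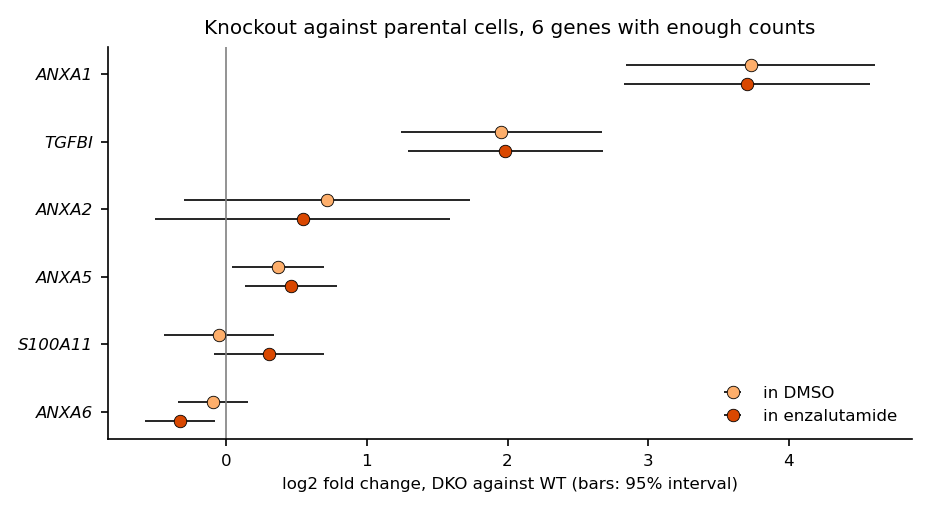
Log2 fold change of DKO against WT cells in DMSO and in enzalutamide from the fit across all genes, for the 6 genes with enough counts. Points are estimates and bars their 95% intervals, and ANXA1 (3.73 and 3.71) and TGFBI (1.96 and 1.98) stand to the right of the other 4. Those 2 genes were picked for this rise, so their place and the bars are a description and no test.

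ANXA5 (ENSG00000164111, chromosome 4, 121667955 to 121697113, - strand), the phosphatidylserine-binding annexin used as a probe of dying cells, was the most abundant of the 9 genes. In DMSO it stood at 176, 166, 159 and 285 CPM in WT and at 247, 229, 245 and 293 CPM in DKO. In EZ it stood at 185, 193, 182 and 206 CPM in WT and at 216, 247, 264 and 326 CPM in DKO. In DMSO the groups overlapped through WT DMSO replicate 4, which was far above the other 3, while in EZ every DKO library was above every WT library. The log2 difference was 0.37 ± 0.17 (SE) in DMSO and 0.46 ± 0.17 in EZ. With library totals in place of TMM scaling the EZ value was 0.70, where the median of all tested genes also moved, from -0.013 to 0.229.

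ANXA6 (ENSG00000197043, chromosome 5, 151100712 to 151157882, - strand), an annexin with a doubled core that links membranes to the cortical cytoskeleton, was also well expressed and overlapped between the genotypes. It averaged 120 ± 18.7 CPM in WT DMSO and 112 ± 2.81 in DKO DMSO, with a log2 difference of -0.09 ± 0.13 (SE) that turned to 0.12 with library totals. In EZ it averaged 124 ± 17.2 and 98.3 ± 13.3 CPM, with a log2 difference of -0.33 ± 0.13, or -0.09 with library totals. The ratio of ANXA5 to ANXA6 per kilobase was 2.95 ± 0.736 in WT and 4.06 ± 0.506 in DKO cells in DMSO, and 2.80 ± 0.276 and 4.78 ± 0.223 in EZ. That ratio is free of library scaling, and in EZ its lowest DKO value (4.57) was above its highest WT value (3.09), while in DMSO the WT values reached 3.97 and the DKO values began at 3.53.

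ANXA2 (ENSG00000182718, chromosome 15, 60347134 to 60402883, - strand), the annexin that with S100A10 promotes plasmin formation at the cell surface, was barely counted in either genotype. Its libraries held 4 to 28 counts each. In DMSO the means were 0.388 ± 0.154 CPM in WT and 0.621 ± 0.112 in DKO (log2 0.72 ± 0.52), and in EZ 0.376 ± 0.196 and 0.575 ± 0.340 (log2 0.54 ± 0.53). The groups overlapped in both. The processed pseudogenes ANXA2P1, ANXA2P2 and ANXA2P3 held 24, 12 and 5 counts over all 16 libraries, against 189 for ANXA2, and reads shared with them leave its value uncertain. ANXA3 (ENSG00000138772, chromosome 4, 78551519 to 78610451, + strand) had 16 counts over all 16 libraries. DKO DMSO held 5 of them, DKO EZ 9 and WT DMSO 2. WT EZ held 0, which allows up to 0.0305 CPM over the group (3 counts). The 95% exact Poisson interval of its pooled level was 0.0141 to 0.101 CPM in DKO DMSO and 0.00224 to 0.0669 in WT DMSO, which overlap. In EZ that interval was 0.0371 to 0.154 CPM in DKO and 0 to 0.0375 in WT, which barely overlap. These intervals and limits cover counting error only and are no test between the genotypes.

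Set among the whole family per kilobase of exon, the mean of ANXA1 in DKO DMSO was close to 1 CPM per kilobase, the level used here to count expressed annexins. In WT DMSO 6 of 13 annexins reached that level. ANXA7 (69.7 ± 17.8 CPM per kilobase) and ANXA5 (64.8 ± 19.5) led and did not differ beyond their spread, followed by ANXA6 (22.04 ± 3.45), then ANXA11 (9.01 ± 0.502) and ANXA9 (8.23 ± 1.13), whose values overlapped, and ANXA4 (3.48 ± 0.557). ANXA10 (0.117 ± 0.0807), ANXA1 (0.0765 ± 0.0310) and ANXA2 (0.0440 ± 0.0175) lay within their spread of one another. In DKO DMSO ANXA5 (83.6 ± 9.11) and ANXA7 (57.7 ± 15.4) led, and ANXA1 (1.02 ± 0.381, from 0.641 to 1.38, with 2 of 4 libraries under 1) came seventh, below ANXA4 (3.52 ± 0.0909) and above ANXA2 (0.0704 ± 0.0127). Among the 8 annexins outside the 9 genes, 4 were tested, and 0 of the 4 passed the threshold between the genotypes in DMSO or in EZ (median log2 -0.03 and -0.14, against -0.06 and -0.01 over all tested genes). Values of ANXA8 and ANXA8L1, near-identical copies, are uncertain and were at most 9 counts in a library.

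The S100 genes split between a silent and an active end. S100A10 (ENSG00000197747, chromosome 1, 151982915 to 151994390, - strand), the light chain of the ANXA2 complex, had 11 counts in 16 libraries, and 12 libraries had none. They were 4 in WT DMSO replicate 2, 1 in WT DMSO replicate 3, 5 in WT EZ replicate 3 and 1 in DKO DMSO replicate 2, and the 0 counts of DKO EZ allow up to 0.0270 CPM over the group. S100A6 (ENSG00000197956, chromosome 1, 153534599 to 153536244, - strand), calcyclin, had 1 count in all, in DKO DMSO replicate 3. An antisense gene, ENSG00000238279, shares 23 exon bases with it and had 3 counts. S100A11 (ENSG00000163191, chromosome 1, 152032506 to 152047907, - strand), calgizzarin, had 370 to 2167 counts in every library. It is the next S100 gene after S100A10 on chromosome 1, and the CpG content of both promoters was above the median of all promoters. S100A11 did not separate the genotypes, at 24.5 ± 2.75 CPM in WT DMSO and 23.6 ± 5.34 in DKO DMSO (log2 -0.05 ± 0.20, from -0.14 to 0.16 over all alternatives) and with a log2 difference of 0.30 ± 0.20 in EZ, with overlapping libraries in both. The antisense gene ENSG00000229021 inside it shares no exon bases and had 42 counts, and the S100A11 pseudogenes had at most 4.

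**Figure D3:**
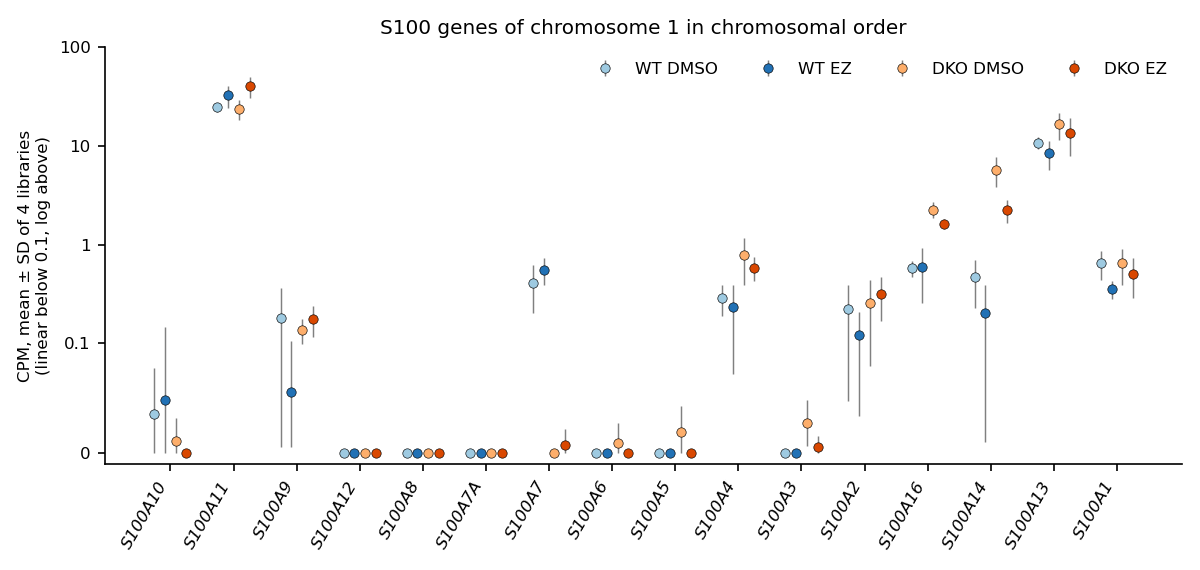
Mean CPM ± SD over 4 libraries of the 16 S100 genes of chromosome 1, in chromosomal order, on an axis that is linear below 0.1 and logarithmic above. S100A11 stands highest in every group, its neighbour S100A10 and S100A6 lie at or near 0, and S100A14 and S100A16 are higher in both DKO groups.

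S100A11 was the most abundant S100 transcript per kilobase in every group, at 34.7 ± 7.86 CPM per kilobase in DKO DMSO against 7.46 ± 2.27 for S100A13, the next. In DKO DMSO S100A14 (4.48 ± 1.48) and S100P (4.35 ± 2.47) followed and did not differ beyond their spread. Of 17 S100 genes outside the 9, 7 were tested, and between the genotypes in DMSO 3 rose and 1 fell by edgeR's quasi-likelihood test (8.91% and 9.7% of all tested genes), with a median log2 change of 0.63. In EZ 2 rose and 1 fell (9.29% and 11.4%), with a median of 1.27. S100A14, a membrane-associated S100 protein of epithelia, rose from 0.465 to 5.72 CPM in DMSO (log2 3.55 ± 0.51, edgeR adjusted p = 8.71e-05) and its neighbour S100A16 from 0.576 to 2.26 CPM (1.94 ± 0.37, edgeR adjusted p = 0.00132). In EZ S100A14 rose by 3.46 ± 0.55 (edgeR adjusted p = 2.52e-04) and S100A16 by 1.42 ± 0.37 (0.0115). S100A4, a gene tied to cell motility, rose in DMSO by 1.44 ± 0.47 (edgeR adjusted p = 0.0418), and S100A7, psoriasin, fell in both, from 0.411 ± 0.208 CPM in WT DMSO to 0 in all 4 DKO DMSO libraries, which allows up to 0.0260 CPM. S100A4 and S100A7 lay under 1 CPM on average and were named after their values were seen.

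Enzalutamide left ANXA1 with no detectable change in either genotype. It was followed by higher S100A11 and TGFBI in every pair of libraries with the same genotype and replicate number. S100A11 in WT replicates 1 to 4 stood at 26.3, 22.9, 21.5 and 27.3 CPM in DMSO and at 43.3, 26.6, 25.6 and 34.2 CPM in EZ. In DKO it stood at 30.5, 20.1, 18.7 and 25.2 CPM in DMSO and at 50.8, 30.1, 33.5 and 45.4 CPM in EZ. The group ranges overlapped in both genotypes, because replicates 1 and 4 were high and replicates 2 and 3 low under either treatment. None of the 6 tested genes had groups that did not overlap (in WT 5.78% of all tested genes were separated as higher and 3.81% as lower, and in DKO 5.2% and 4.41%). In edgeR's fit with no pairing 0 of the 6 passed the threshold in WT (3.32% of all tested genes did) or in DKO (1.48%). At an unadjusted p under 0.05 there were 0 of 6 in WT (15.6%) and 1 in DKO (13.3%), S100A11, the same gene that DESeq2 called in DKO with 0 in WT. There S100A11 had log2 changes of 0.40 ± 0.20 (edgeR adjusted p = 0.349) in WT and 0.76 ± 0.20 (edgeR adjusted p = 0.0727) in DKO. Libraries with the same replicate number within a genotype deviated together (correlations of 0.326 to 0.664), though those with different numbers reached 0.511. The sources used here state no pairing, so the fit with a block rests on a choice made from these data. With the replicate number as a block within genotype S100A11 rose by 0.38 ± 0.10 in WT (edgeR adjusted p = 0.0281) and by 0.75 ± 0.10 in DKO (edgeR adjusted p = 0.00129). In that fit 12.1% of tested genes passed in WT (7.67% higher and 4.44% lower) and 7.75% in DKO (4.63% and 3.12%).

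TGFBI moved the same way as S100A11 under the drug. Its paired log2 CPM differences were 0.75, 0.47, 0.56 and 0.62 in WT and 0.50, 0.76, 0.90 and 0.52 in DKO, all above 0. With no pairing the log2 changes were 0.64 ± 0.38 in WT (edgeR adjusted p = 0.448) and 0.67 ± 0.33 in DKO (edgeR adjusted p = 0.401). With the block within genotype TGFBI rose in DKO by 0.69 ± 0.18 (edgeR adjusted p = 0.0350), while in WT the change of 0.67 ± 0.24 missed the threshold (edgeR adjusted p = 0.0933). S100A11 and TGFBI alone of the 6 were higher in all 4 pairs in WT, where 16.6% of tested genes were. The same genes alone were so in DKO, where 18.8% of tested genes were. The share of tested genes higher in all pairs of both genotypes was not computed.

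**Figure D4:**
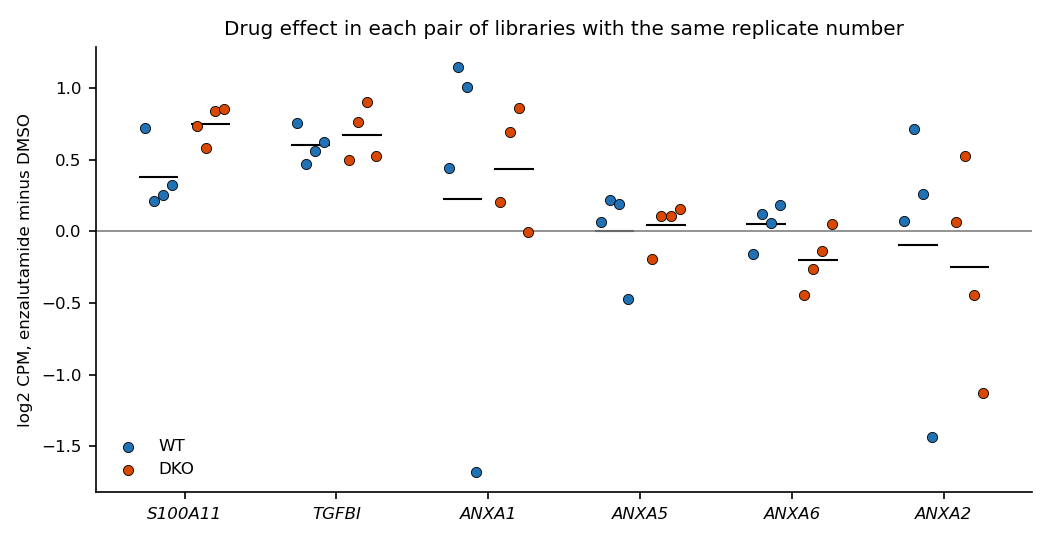
Difference of log2 CPM between enzalutamide and DMSO in each pair of libraries with the same genotype and replicate number (points, replicates 1 to 4 from left to right) and the mean of 4 pairs (line). All 16 points of S100A11 and TGFBI lie above 0, whereas those of ANXA1, ANXA5, ANXA6 and ANXA2 lie on both sides.

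The 4 annexins showed no drug effect past the threshold in any fit that was run. ANXA1 had a log2 change of 0.40 ± 0.49 in WT and 0.37 ± 0.38 in DKO (edgeR adjusted p = 0.775 and 0.771), with 95% intervals of -0.56 to 1.35 and -0.36 to 1.11, which take in a 2-fold rise. Its pairs were higher in EZ in 3 of 4 in each genotype, the exceptions being replicate 4 (-1.68 in WT, where 3 counts were left in EZ, and -0.01 in DKO). ANXA5 had log2 changes of -0.04 ± 0.17 in WT and 0.05 ± 0.17 in DKO, with intervals of -0.36 to 0.29 and -0.27 to 0.38. ANXA6 had log2 changes of 0.05 ± 0.13 in WT and -0.19 ± 0.13 in DKO, where 3 of 4 pairs were lower (edgeR adjusted p = 0.598, or 0.207 with the block within genotype). ANXA2, with few counts, had log2 changes of -0.03 ± 0.54 and -0.21 ± 0.51. The difference between the drug effects in DKO and WT, which shares its libraries with the contrast used to pick the genes, passed for none of the 6 (0 of 21810 genes passed, 2.97% at an unadjusted p under 0.05, 10 genes by DESeq2 and 0.179% with the block within genotype). For S100A11 it was 0.36 ± 0.28 (interval -0.20 to 0.91) and for TGFBI 0.03 ± 0.58 (-1.11 to 1.17).

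Among the 8 other annexins ANXA9, an atypical annexin that lacks usual calcium sites, rose under the drug in WT from 15.03 ± 2.07 to 25.7 ± 2.30 CPM (log2 0.77 ± 0.13, edgeR adjusted p = 0.00310), and in DKO its log2 change was 0.49 ± 0.13 (edgeR adjusted p = 0.0714). It was the 1 of 4 tested that rose in WT (2.25% of tested genes rose and 1.07% fell), and 0 of 4 passed in DKO (1.03% rose and 0.445% fell). With the block within genotype 2 of 4 rose in WT, ANXA9 and ANXA11 (7.67% of all tested genes rose), and 1 in DKO, ANXA9 (4.63%). None of the 7 other tested S100 genes passed in either genotype (medians -0.33 in WT and -0.43 in DKO, against -0.03 and 0.01 over all genes), opposite in sign to S100A11. S100A14 was lower in DKO EZ than in DKO DMSO, at 2.24 against 5.72 CPM (log2 -1.34 ± 0.45, edgeR adjusted p = 0.169), and it alone of the 7 fell with the block within genotype.

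Partners of these proteins were compared from a list of 23 genes, of which 19 were tested. Between the genotypes 3 rose and 1 fell in DMSO (8.91% and 9.7% of all tested genes). In EZ 3 rose and 2 fell (9.29% and 11.4%). The medians were -0.02 and -0.01, against -0.06 and -0.01 over all tested genes. DYSF, dysferlin, which repairs membrane tears together with annexins, rose from 0.352 to 1.18 CPM in DMSO (log2 1.75 ± 0.44, edgeR adjusted p = 0.00958) and by 1.63 ± 0.43 in EZ (edgeR adjusted p = 0.0116, but 0.0792 with replicate 1 of both EZ groups left out). MYOF, the related myoferlin, rose in EZ by 1.62 ± 0.30 (edgeR adjusted p = 8.89e-04) and was named after its values were seen. PLA2G4A, the cytosolic phospholipase A2 that ANXA1 is known to inhibit, rose in DMSO from 1.71 to 3.58 CPM (1.06 ± 0.26, edgeR adjusted p = 0.00759). KCNK3, a potassium channel that S100A10 carries to the membrane, rose in EZ from 0.353 to 2.32 CPM (2.73 ± 0.71, edgeR adjusted p = 0.0108, but 0.0703 without DKO EZ replicate 1). The calpain gene CAPN2 fell in DMSO by 0.83 ± 0.23 (edgeR adjusted p = 0.0167; lost without any 1 of 4 libraries, 0.0909 without WT DMSO replicate 4). CAPNS1, the calpain small subunit, fell in EZ by 0.59 ± 0.16 (0.0152; lost with library totals and without any 1 of 5 libraries, 0.0987 without DKO EZ replicate 3).

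TRPV6, a calcium channel whose surface delivery is known to need S100A10 and ANXA2, rose under the drug in both genotypes. It went from 14.7 to 34.8 CPM in WT (log2 1.24 ± 0.23, edgeR adjusted p = 0.00561) and from 10.2 to 20.3 CPM in DKO (0.99 ± 0.23, edgeR adjusted p = 0.0385; lost without any 1 of 9 libraries, 0.139 without DKO DMSO replicate 2). In EZ it was lower in DKO than in WT by a log2 change of -0.78 ± 0.22 (edgeR adjusted p = 0.0194; lost with library totals or upper-quartile scaling and without any 1 of 4 libraries, 0.113 without DKO EZ replicate 3). TRPV6 was the only 1 of 19 partners past the threshold under the drug without pairing in either genotype (3.32% of all tested genes in WT and 1.48% in DKO). With the block within genotype CAPN1 and CAPNS1 in WT and CAPNS1 in DKO rose too (7.67% of all tested genes rose in WT and 4.63% in DKO). FPR1 and FPR2, the formyl peptide receptors that bind ANXA1, did not pass the filter on counts and reached at most 0.0841 CPM in any library. Cells of both genotypes thus held hardly any transcript of either receptor.

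For TGFBI the pathway it is named for was described from 17 ligands, receptors, SMADs and latency proteins, of which 15 were tested. The receptor subunit TGFBR2, which binds the ligand first, fell in DKO cells from 7.27 ± 3.48 to 0.186 ± 0.186 CPM in DMSO (log2 -5.11 ± 0.54, edgeR adjusted p = 3.66e-06) and from 7.56 ± 1.13 to 0.394 ± 0.145 CPM in EZ (-4.21 ± 0.51, edgeR adjusted p = 1.67e-05). Its WT libraries lay at 5.01 to 12.5 CPM and its DKO libraries at 0 to 0.587. LTBP1, which holds latent TGF-beta in the matrix, rose from 12.3 ± 4.21 to 46.9 ± 5.59 CPM in DMSO (1.93 ± 0.21, edgeR adjusted p = 5.91e-06) and by 2.22 ± 0.21 in EZ. The ligand gene TGFB3 rose in EZ by 1.49 ± 0.37 (edgeR adjusted p = 0.00724, but 0.0640 with replicate 1 of both EZ groups left out), and the ligand gene TGFB1 was at most 0.388 CPM in any library. In all, 1 rose and 2 fell in DMSO (8.91% and 9.7% of all tested genes) and 2 rose and 1 fell in EZ (9.29% and 11.4%). The other gene to fall in DMSO, SMAD2 (-0.29 ± 0.09, edgeR adjusted p = 0.0388), lost its call without any 1 of 16 libraries and stood at 0.641 with library totals. The call was also lost with edgeR's RLE scaling, upper-quartile scaling, no filter, only the 8 libraries compared or replicate 1 of both EZ groups left out.

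Of 18 genes known to be induced by TGF-beta, 13 were tested, with 3 higher and 0 lower in DKO in DMSO, where 8.91% of all tested genes were higher and 9.7% lower. In EZ 2 were higher and 0 lower, against 9.29% and 11.4% of all tested genes. The median log2 difference of the 13 was 0.05 in DMSO and 0.28 in EZ, against -0.06 and -0.01 over all tested genes. The collagen gene COL1A1 rose in both, from 17.2 to 32.5 CPM in DMSO (0.92 ± 0.17, edgeR adjusted p = 0.00110) and by 1.12 ± 0.17 in EZ (1.92e-04). The metalloprotease gene ADAM12 rose in DMSO by 1.22 ± 0.35 (edgeR adjusted p = 0.0216, but 0.0514 without WT DMSO replicate 4), and the actin-binding gene TAGLN, named after its values were seen, by 0.69 ± 0.20 (0.0238). THBS1, thrombospondin, was higher in DKO in EZ by 1.44 ± 0.31 (0.00313), where the drug had lowered it in WT from 32.5 to 11.2 CPM (-1.54 ± 0.31, edgeR adjusted p = 0.0110) while DKO held 29.8 CPM in DMSO and 30.4 in EZ. The difference of the drug effects on THBS1 was 1.56 ± 0.43 (edgeR adjusted p = 0.9999) and passed with the block within genotype. SMAD7, the inhibitory SMAD, rose with the drug in WT from 12.1 to 22.3 CPM (0.88 ± 0.16, edgeR adjusted p = 0.00527) and in DKO from 14.5 to 22.8 CPM (0.65 ± 0.16, edgeR adjusted p = 0.0475; lost with library totals and without any 1 of 11 libraries, 0.171 without DKO DMSO replicate 2).

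Under the drug the ligand and receptor list had 1 of 15 higher in WT (median 0.06), SMAD7, and 3 of 15 higher in DKO (median 0.34), which were SMAD7, LTBP1 (0.86 ± 0.21, edgeR adjusted p = 0.0458) and the co-receptor gene TGFBR3 (0.81 ± 0.19, edgeR adjusted p = 0.0474). Over all tested genes 2.25% were higher in WT and 1.03% in DKO. The calls of LTBP1 and TGFBR3 were lost with edgeR's RLE scaling, with no filter and with replicate 1 of both EZ groups left out. They were also lost without any 1 of 13 and 14 libraries (edgeR adjusted p = 0.135 and 0.173 without DKO DMSO replicate 2). With the block within genotype 3 rose and 2 fell in WT (7.67% and 4.44% of all tested genes) and 4 rose and 1 fell in DKO (4.63% and 3.12%). LTBP1, LTBP3 and SMAD7 were higher and TGFBR1 lower in both. LTBP1, like TGFBI, was higher in DKO libraries and higher under the drug in the paired fit of DKO cells.

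Of 15 matrix and integrin genes, which include partners of TGFBI and its paralog, 12 were tested. In DKO cells 4 were higher and 0 lower in DMSO (8.91% and 9.7% of all tested genes), and 6 were higher and 0 lower in EZ (9.29% and 11.4%). Their medians were 0.33 and 0.45, against -0.06 and -0.01 over all tested genes. FN1, fibronectin, rose in DMSO from 198 to 479 CPM (1.27 ± 0.16, edgeR adjusted p = 3.18e-05) and ITGB4, the integrin beta-4 gene, from 5.31 to 19.0 CPM (1.83 ± 0.19, edgeR adjusted p = 2.60e-06). In EZ ITGB4 rose by 1.35 ± 0.18 (5.63e-05) and BGN, the matrix proteoglycan biglycan, by 3.33 ± 0.82, to 1.28 CPM (edgeR adjusted p = 0.00716). POSTN, periostin, the paralog of TGFBI, had a highest level of 0.0494 CPM and was not tested. Under the drug FN1 rose in WT from 198 to 407 CPM (1.04 ± 0.16, edgeR adjusted p = 0.00205), where the integrin alpha-3 gene ITGA3 rose by 0.90 ± 0.24 (0.0492; lost with no filter and without any 1 of 13 libraries, 0.165 without WT DMSO replicate 2). None of the 12 passed in DKO. With the block within genotype 4 rose and 1 fell in WT (7.67% and 4.44% of all tested genes) and 2 rose and 1 fell in DKO (4.63% and 3.12%).

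Markers of other cell types were read beside these results because ANXA1 and TGFBI are abundant in many other cells. Over all tested genes 8.91% were higher in DKO in DMSO and 9.29% in EZ. Of 6 fibroblast markers 3 were tested and COL1A1 and LUM were higher in DKO in both treatments. The summed level of the 6 was 16.8 to 22.3 CPM in WT DMSO and 27.2 to 46.9 in DKO DMSO, and 15.4 to 21.5 in WT EZ and 38.1 to 52.1 in DKO EZ. COL1A1 made up most of that sum. LUM, which encodes the matrix proteoglycan lumican, rose from 0.356 to 3.06 CPM in DMSO (log2 3.07 ± 0.60, edgeR adjusted p = 0.00164) and from 0.146 to 4.36 CPM in EZ (4.76 ± 0.67, edgeR adjusted p = 8.66e-05), while COL1A2, DCN and PDGFRA were at most 0.158 CPM in any library. Of 8 genes typical of other epithelial lines 4 were tested, with 2 higher in DMSO and 3 in EZ and a summed level of 1.22 to 2.16 CPM in WT DMSO and 2.91 to 5.28 in DKO DMSO. CAV2, under 1 CPM and named after its values were seen, was among them in both treatments (0.0940 to 0.771 CPM in DMSO, log2 3.14 ± 0.60, edgeR adjusted p = 0.00134). CD44 was at most 0.315 CPM in any library and KRT7 had 0 counts in WT. None of the 5 leukocyte markers was tested, with summed levels of 0.126 to 0.249 CPM in WT DMSO and 0.444 to 0.637 in DKO DMSO and CD3E at 0. Of 4 basal markers 1 was tested, KRT14, which was lower in DKO than in WT in EZ at under 1 CPM on average. KRT5 and TP63 were at most 0.144 CPM, and the summed basal level was 0.209 to 0.464 CPM in WT DMSO and 0.340 to 6.25 in DKO DMSO, where 1 library held 5.98 CPM of KRT15. Of 4 endothelial markers, summed at 6.31 to 17.4 CPM in WT DMSO and 5.37 to 10.9 in DKO DMSO, 1 was tested, VWF, which fell under the drug in WT from 13.1 to 5.35 CPM (-1.29 ± 0.30, edgeR adjusted p = 0.0265; lost without any 1 of 5 libraries, 0.0931 without WT DMSO replicate 3). The luminal marker KLK3, which encodes prostate-specific antigen, was lower in DKO (46.2 to 4.25 CPM in DMSO, log2 -3.48 ± 0.64, edgeR adjusted p = 0.00159). The part of any of these markers in the values of ANXA1 and TGFBI was not tested. In bulk RNA, more cells that express a gene and more RNA per cell cannot be told apart.

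Genes with the most similar pattern were sought among 10689 protein-coding genes of at least 5 CPM, by the root-mean-square difference of log2 CPM centred on each gene's mean over the 16 libraries. For ANXA1, whose own root-mean-square deviation was 1.89, the nearest were PARM1 (0.600), NAA11 (0.619), PLXND1 (0.632), MAGEA4 (0.665) and PLXNA2 (0.667). PARM1 is an androgen-regulated mucin-like gene, and PLXND1 and PLXNA2 encode plexins, receptors of semaphorins. They differed between the genotypes in DMSO by a log2 of 2.66 (PLXNA2) to 4.18 (PARM1). Such differences follow from the rule, since the values of ANXA1 itself differ mostly between the genotypes. For TGFBI, with a deviation of 1.06, the nearest were the iron exporter gene SLC40A1 (0.343), FMR1NB (0.385), the glycosyltransferase gene B4GALNT3 (0.394), the signalling adaptor gene TRAF5 (0.402) and EHBP1L1 (0.429). No gene was named for both, which says little. The rule compares the size of the deviations, and those of ANXA1 (1.89) and TGFBI (1.06) differ. For ANXA2 the nearest were CCZ1, E2F6, NBPF1, NUDT4 and BMPR1A (0.386 to 0.431, against its own deviation of 0.631), a likeness that rests on few counts, and S100A10 had too few counts to be compared.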

How the data were processed

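Gene-level RNA-seq counts of 16 LNCaP libraries were used. The authors deposited raw counts per Ensembl gene ID, 1 file per library, as whole numbers. STAR 2.7.3a and GRCh38 are named in the submitters' processing notes. What counted the reads, with which strand setting and annotation release, was not given in the sources used here. Symbols matched 60357 of 60676 IDs, and positions and exon lengths came from GENCODE v29 (58503 IDs).

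Counts were fitted with edgeR 4.0.16 in R 4.3.3 (TMM, filterByExpr with a minimum count of 10 and total of 15, 21810 genes, 1 mean per group, quasi-likelihood F-test, Benjamini-Hochberg threshold 0.05; biological coefficient of variation 28%). Changes are log2 fold changes ± SE and levels mean CPM ± SD. Replicate pairs differed by 4.87 to 88.7 times sampling noise (chi-square per degree of freedom), so all libraries were kept. Same-numbered libraries deviated together within genotype (r 0.326 to 0.664 in 8 pairs) but not throughout between genotypes (-0.132 to 0.674), so the number was treated as a pairing within genotype. Different-numbered libraries within genotype had r from -0.566 to 0.511 in 24 pairs, which overlaps the same-numbered range. The sources used here state no pairing, so it was chosen from these data. Genes named from each list were up to the 2 highest and 2 lowest changes past the threshold with at least 1 CPM in the higher group. The 9 genes, the lists and the naming rule were chosen with earlier results of these data known. Alternatives were other scalings, no filter, DESeq2 1.42.0, blocks, an RN7SL1 library set term, fewer libraries and each library left out. The fit was tested on simulated counts. Promoter sequences are from RefSeq. Some genes of the lists are not reported here.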

Additional observations from a re-analysis of the deposited data

Results flagged for a closer look

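ANXA5 in WT DMSO replicate 4 stood at 284.9 CPM, far from the other 3 libraries of its group, which lay between 159 and 176 CPM. It was the 1 group of 24 tested (6 genes in 4 groups) with such a library, and chance gives about 1 in 20 (5%). Without that library the log2 change of ANXA5 under the drug in WT was 0.22 instead of -0.04, and its log2 difference between the genotypes in DMSO was 0.65 instead of 0.37.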

How the results depend on the processing

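The genotype differences of ANXA1 and TGFBI kept their direction under all 25 alternatives run for each. Both genes were picked for this direction, and every alternative reuses these libraries, so this only describes how the values depend on the settings. The count of genes past the threshold under the drug in WT was 724, and became 1724 with the replicate block, 2641 with the replicate block within genotype, 436 with no filter, 1239 with DESeq2, 294 with only the 8 libraries compared and 304 (without WT DMSO replicate 2) to 1051 (without WT DMSO replicate 4) with 1 library left out. In DKO it was 322, and became 1104, 1691, 167 and 806 with the first 4 of these, 519 with the library set term and 73 (without DKO DMSO replicate 2) to 451 (without WT DMSO replicate 4) with 1 library left out. In WT it also moved by over 1.5 times without WT DMSO replicate 3 (382), WT EZ replicate 1 (415), 2 (477) or 4 (432). In DKO it did so without any other DKO library but DMSO replicate 4 (114 to 173), without WT DMSO replicate 2 (187) and without WT EZ replicate 2 (195). The difference of drug effects had 0 genes, but 1 with the replicate block, 39 with the block within genotype and 10 with DESeq2. Of the 9 genes, 0 were called under the drug. With the replicate block 1 was called in WT and 1 in DKO, and with the block within genotype 1 in WT and 2 in DKO. Library totals, DESeq2 and the library set term each called 1 in DKO. The gene was S100A11 in each case (edgeR adjusted p in DKO 0.0461 with library totals and 0.0419 with the set term; DESeq2 0.0262), joined by TGFBI with the block within genotype. The block changed no other drug call of the 9 genes.

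Values near 0 changed sign. ANXA5 in WT was 0.002 with the block within genotype. ANXA6 in WT was -0.016 with upper-quartile scaling and -0.023 with library totals. The difference of drug effects of ANXA1 was 0.011 with the replicate block, 0.037 with the block within genotype, 0.012 with upper-quartile scaling, 0 with library totals and 0.078 with replicate 1 of both EZ groups left out. With 1 library left out the log2 ranges were, in WT, -0.327 to 0.284 for ANXA2, -0.128 to 0.223 for ANXA5 and -0.045 to 0.171 for ANXA6. In DKO they were -0.540 to 0.088 for ANXA2 and -0.060 to 0.130 for ANXA5. For the difference of drug effects they were -0.418 to 0.275 for ANXA1, -0.500 to 0.127 for ANXA2, -0.177 to 0.174 for ANXA5 and -0.174 to 0.263 for TGFBI. The cause of these changes was not tested. Library totals turned the genotype split in DMSO from 1943 higher and 2115 lower to 3479 and 1082, and in EZ from 2027 and 2481 to 3966 and 1183. The split under the drug in WT went from 491 and 233 to 447 and 361 with library totals and to 513 and 401 with upper-quartile scaling. At 3 to 16 counts per WT library for ANXA1 and 4 to 13 for ANXA2, their intervals within WT took in changes of about 2-fold, so smaller ones were not detectable.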
